A study of Rattus norvegicus with 5 samples.

Results

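The expression of 8 inflammatory genes was examined in microglia, the resident immune cells of the brain, from the offspring of rat dams that had received CYP11A1 adenovirus or the empty control virus. The genes were fixed as a list by their Ensembl identifiers, 8 of the 35495 features in the table, and the rule used no measured value. The list was, however, chosen with earlier results of these data known. They comprise the 4 cytokine genes Il1b (ENSRNOG00000004649), Tnf (ENSRNOG00000055156), Il6 (ENSRNOG00000010278) and Il10 (ENSRNOG00000004647). The other 4 encode CC chemokines, namely Ccl2 (ENSRNOG00000007159), Ccl3 (ENSRNOG00000011205), Ccl4 (ENSRNOG00000011406) and Ccl5 (ENSRNOG00000010906). The symbols come with this list, since neither the files nor the reference table used here pair Ensembl identifiers with names.

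All rats were Sprague Dawley, and dams of both groups were injected into the tail vein in mid-gestation. The CYP11A1 group came from dams given an adenovirus carrying the cDNA of CYP11A1, the enzyme that converts cholesterol to pregnenolone and so starts steroid hormone synthesis. The control group came from dams given the same vector without this cDNA, so that dams of both groups received a virus with a CMV promoter and a green fluorescent protein tag. The offspring themselves were not injected, and only males were sequenced. The labels give the age of the offspring as 3 months, whereas the methods of the study give a younger age. The microglia were isolated from minced, dissociated brain on Percoll gradients, and the methods name no sort by surface marker before the RNA was extracted. There were 2 control libraries (control 1 and control 3) and 3 CYP11A1 libraries (CYP11A1 1, 2 and 3). The study states an N of 3 per group for the sequencing, whereas 2 control libraries were available here. The labels do not say whether each library is 1 rat. The virus was given to dams, and the study does not say from how many litters the libraries came. The p-values below therefore measure only the spread between these libraries.

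Cytokines and chemokines are secreted signals that microglia release when they sense damage or microbial products. Pattern recognition receptors activate the transcription factor NF-kappaB, which together with other factors switches on Il1b, Tnf, Il6 and the CC chemokine genes. Il1b and Tnf products start and spread the inflammatory response, and the Il6 product signals through gp130 and STAT3. The Il10 product restrains cytokine production. The Ccl2 product draws in monocytes through the receptor CCR2, while the products of Ccl3, Ccl4 and Ccl5 attract monocytes and T cells. In the GRCr8 assembly of RefSeq the 4 chemokine genes all lie on chromosome 10, and Ccl3 and Ccl4 are direct neighbours among the coding genes.

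RefSeq promoter sequences were at hand for 3 of the 8 genes, and all 3 are shown. Each sequence is the 250 bases before the annotated start in GRCr8, 5′ to 3′ on the strand of the gene, and capitals mark motif matches. The searched motifs were the NF-kappaB motif, the cAMP response element TGACGTCA and the AP-1 motif TGANTCA on both strands, and the TATA box TATAAA on the strand of the gene. TGACGTCA reads the same on both strands, so its site in the Il6 promoter counted as 2 matches and is marked once. No other matches overlapped in these 3 promoters.
Il1b, chr3:137036582-137036831, minus strand: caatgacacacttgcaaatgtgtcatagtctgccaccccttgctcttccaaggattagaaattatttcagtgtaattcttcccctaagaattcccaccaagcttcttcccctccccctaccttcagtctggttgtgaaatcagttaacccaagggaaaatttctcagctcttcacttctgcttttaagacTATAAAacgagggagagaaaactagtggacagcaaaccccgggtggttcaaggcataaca
Tnf, chr20:3626435-3626684, plus strand: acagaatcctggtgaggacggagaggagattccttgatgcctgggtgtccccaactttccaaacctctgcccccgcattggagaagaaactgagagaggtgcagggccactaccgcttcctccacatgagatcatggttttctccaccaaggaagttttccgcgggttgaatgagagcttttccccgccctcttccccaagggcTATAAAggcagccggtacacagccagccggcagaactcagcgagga
Il6, chr4:5894576-5894825, minus strand: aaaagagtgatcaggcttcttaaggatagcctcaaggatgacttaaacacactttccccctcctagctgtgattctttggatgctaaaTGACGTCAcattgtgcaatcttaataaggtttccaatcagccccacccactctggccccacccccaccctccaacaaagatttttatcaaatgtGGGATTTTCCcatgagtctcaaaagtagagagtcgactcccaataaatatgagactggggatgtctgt

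The Il6 promoter held an NF-kappaB match, GGGATTTTCC, from 68 to 59 bases before the start and a TGACGTCA element from 162 to 155 bases before it. The Il1b promoter held a TATAAA match from 60 to 55 bases before the start, and the Tnf promoter held one from 46 to 41 bases before it. No TGANTCA match was found in these windows. Of the 33469 RefSeq promoter windows of this length, 6.33% held an NF-kappaB match, 1.59% a TGACGTCA match, 6.34% a TGANTCA match and 8.06% a TATAAA match. These matches describe the sequence alone, and an absent match says only that these letters are not in the window.

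Total counts lay between 9623896 and 13624545 per library, and 10766 to 16969 features had at least 1 count. Control 1 and CYP11A1 3 had the fewest features, 12042 and 10766, although they were the deepest. The TMM factors of edgeR, which scale for differences in composition, lay between 0.615 in CYP11A1 1 and 1.35 in CYP11A1 2. Markers of microglia and of other brain or blood cells were not analysed here, for want of identifiers paired with names. The labelled cell type was therefore not checked in these counts. The study itself reports Cd11b staining of the microglia, with most but not all cells positive. In such bulk RNA, fewer cells of a type and less RNA per cell cannot be told apart.

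The 8 genes spanned a wide range of levels, and the chemokines Ccl4 and Ccl2 were among the most abundant transcripts in these cells. On the FPKM scale, which corrects for feature length, the median over the 5 libraries was 3992 for Ccl4 and 1556 for Ccl2. It was 356 for Ccl5, 294 for Il6, 85.0 for Il1b, 11.7 for Ccl3, 3.91 for Il10 and 0.0567 for Tnf. The median rank by FPKM among all features was 27 for Ccl4 and 68 for Ccl2, while Il6 stood at 281 and Ccl3 at 2002. In CYP11A1 1, Ccl4 stood lower, at rank 127, and Ccl2 at rank 395. Ccl4 was above Ccl2, and Il1b above Ccl3, in 5 of 5 libraries. The other neighbours in this order changed places in at least 1 library, except Il10 and Tnf. Ccl2 was above Ccl5 in 4 libraries, Ccl5 above Il6 in 3, Il6 above Il1b in 4 and Ccl3 above Il10 in 4. Over the 5 libraries, the ranges of neighbours in this order overlapped, apart from those of Il10 and Tnf. Within libraries, the FPKM of Il1b was between 3.12 and 18.7 times that of Ccl3, while that of Ccl4 was between 1.02 and 6.24 times that of Ccl2.

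**Figure D1:**
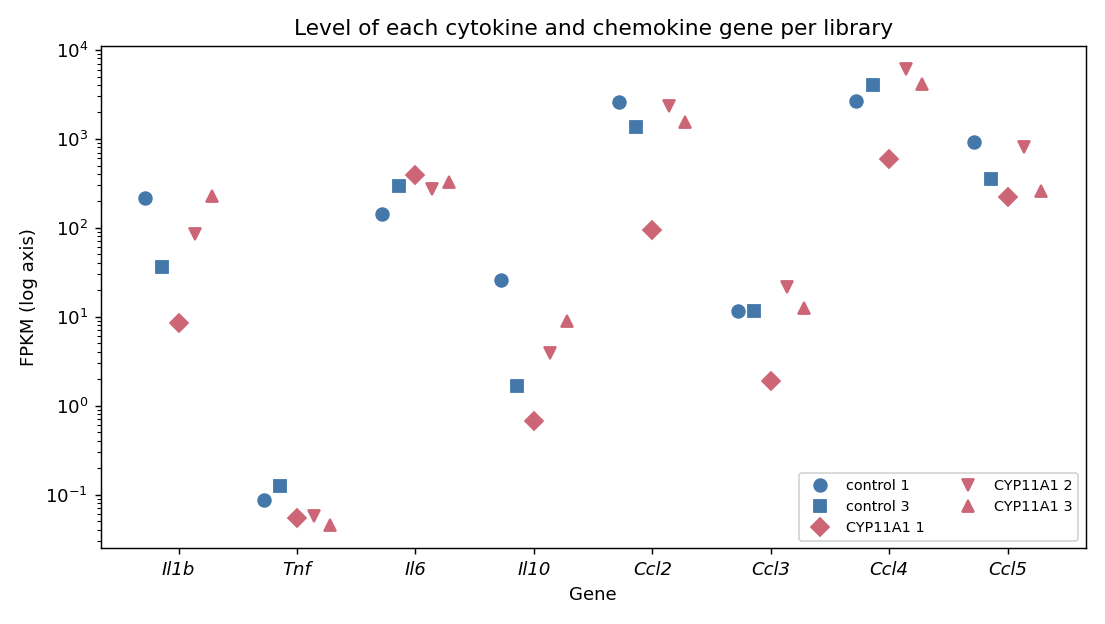
FPKM of each gene on a log axis, 1 point per library, with control libraries in blue and CYP11A1 libraries in red. Ccl4 and Ccl2 have the highest medians, 3992 and 1556, Tnf lies below 0.124 FPKM in each library, and CYP11A1 1 (diamonds) is the lowest library for 6 of the other 7 genes and the highest for Il6.

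No gene of the list passed the test between the groups. Of the 8 genes, 7 passed the filter on low counts, and 0 of these reached an adjusted p below 0.05. The test was the quasi-likelihood test of edgeR, adjusted after Benjamini and Hochberg over all 10346 features tested, of which 0% were called. At an unadjusted p under 0.05 the count was 0 of 7 as well, against 4.26% of all features. DESeq2 also called 0 of the 7, against 0.126% of the 8729 features to which it gave an adjusted p. The fitted fold change, CYP11A1 against control, was above 0 for 1 of the 7 genes and below 0 for 6, with a median of -0.51 on the log2 scale. Over all 10346 features tested, 5846 were above 0, and the median was 0.15. The balance of signs turned on single libraries and on the scaling. Without control 1, 4 of the 7 genes were above 0 and the median was 0.20, and without CYP11A1 1 it was 3 of 7. With total counts in place of TMM, 3 of the 7 were above 0 and the median was -0.24. The groups overlapped in 7 of 7, while 14.4% of the features tested had groups that did not overlap. The spread between libraries of the same group, as a standard deviation of log2(CPM + 1), had a median of 1.002 over the 7 genes and 0.817 over all features tested.

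**Figure D2:**
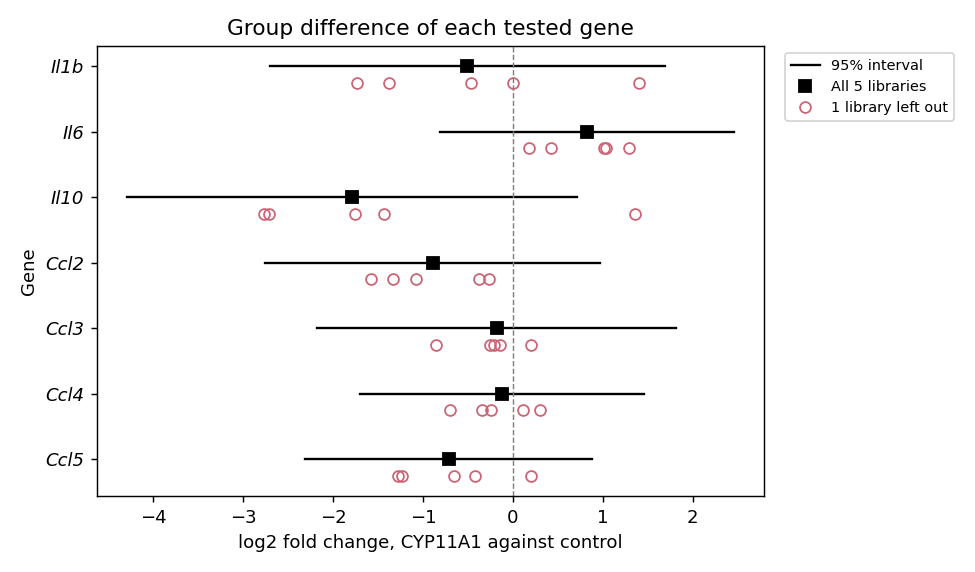
Fitted log2 fold change of each of the 7 tested genes (black squares, with the 95% interval as a line), and the fold changes with 1 library left out (open circles). Each interval spans 0, and the circles of Il1b, Il10, Ccl3, Ccl4 and Ccl5 lie on both sides of it, whereas those of Il6 stay above 0 and those of Ccl2 below.

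Ccl4, which encodes MIP-1beta, was the most abundant of the 8 transcripts. Its normalised read count (CPM, the counts of a gene divided by the total after TMM scaling) was 1746 in control 1 and 2378 in control 3, against 603, 2862 and 2234 in CYP11A1 1, 2 and 3. CYP11A1 1 was the low library, and the values of the controls lay within the range of the CYP11A1 group. The means were 2062 ± 447 CPM (SD, n = 2) in controls and 1900 ± 1166 CPM (SD, n = 3) in the CYP11A1 group. The log2 fold change was -0.12 with a standard error of 0.72 and a 95% interval from -1.70 to 1.46 (edgeR's quasi-likelihood test, adjusted p = 1). With 1 library left out in turn, the log2 fold change lay between -0.70, without CYP11A1 2, and 0.31, without CYP11A1 1. With total counts in place of TMM it was 0.12.

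Ccl3 encodes MIP-1alpha, a related chemokine, and its level was far below that of its neighbour. It had 119 and 85 counts in the controls and 16, 171 and 124 counts in CYP11A1 1, 2 and 3. After scaling, these were 9.05 and 8.34 CPM against 2.36, 12.1 and 8.02 CPM. As for Ccl4, CYP11A1 1 was lowest and CYP11A1 2 highest, with the controls in between. On the log2 scale the fold change was -0.18, with an interval from -2.18 to 1.82, and it lay between -0.86, without CYP11A1 2, and 0.21, without CYP11A1 1. With total counts in place of TMM it was 0.0391.

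The ratio of Ccl4 to Ccl3 changed little between libraries. On the FPKM scale it was 231 in control 1, 342 in control 3, and 306, 285 and 334 in CYP11A1 1, 2 and 3. This ratio within a library does not depend on library scaling, and it spanned 1.48-fold, although Ccl4 spanned 4.75-fold and Ccl3 5.11-fold in CPM. Among the 21 pairs of the 7 genes with at least 3 counts in every library, it had the narrowest span, and the next was Il1b to Il10 at 3.03-fold. The share of Ccl3 in the counts of both genes was 0.516% in control 1, with a 95% Wilson interval from 0.431% to 0.617%. It was 0.349% in control 3 (from 0.283% to 0.432%), and 0.390%, 0.420% and 0.358% in CYP11A1 1, 2 and 3. Of these, only the interval of CYP11A1 3, from 0.300% to 0.426%, did not overlap that of control 1, and the 2 controls lay on either side of the CYP11A1 libraries. Such intervals cover counting error only, since the reads carry no molecular identifiers. Reads that fit more than 1 of the related chemokine genes could be lost or split in counting, and whether this touched the low level of Ccl3 was not tested.

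Likeness between profiles was measured as the root mean square difference between the log2(CPM + 1) values of 2 genes over the 5 libraries, each centred on its own mean. The difference between Ccl3 and Ccl4 was 0.23, whereas the median feature differed from Ccl4 by 1.07. Ccl3 ranked 8 of the 10345 other features in likeness to Ccl4, and Ccl4 ranked 14 in likeness to Ccl3. The annotated features closest to Ccl4 were ENSRNOG00000033402, with a difference of 0.12, ENSRNOG00000016561, with 0.16, and ENSRNOG00000007128, with 0.18, and none of them could be named here. With 5 libraries this is a description of the profiles.

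Ccl2, which encodes the monocyte attractant MCP-1, had the second highest median level and a wide spread. It was at 2254 CPM in control 1 and 1066 CPM in control 3, against 128, 1443 and 1113 CPM in CYP11A1 1, 2 and 3. CYP11A1 1 was far below the remaining 4 libraries, which overlapped between the groups. The means were 1660 ± 840 CPM (SD, n = 2) in controls and 894 ± 684 CPM (SD, n = 3) in the CYP11A1 group, and the 3 CYP11A1 libraries spanned 11.3-fold. The log2 fold change was -0.89 with a standard error of 0.85 and a 95% interval from -2.75 to 0.97 (edgeR's quasi-likelihood test, adjusted p = 1). It lay between -1.58, without CYP11A1 2, and -0.27, without control 1, and was -0.38 without CYP11A1 1. Of the 10346 features tested, 540 had a larger spread within groups than Ccl2. Its profile was nearest, among these genes, to those of Ccl3 and Ccl4, which ranked 86 and 89 in likeness to it. In the other direction, Ccl2 ranked only 3119 in likeness to Ccl3 and 2173 in likeness to Ccl4. The median feature differed from Ccl2 by 1.61, against 0.987 from Ccl3 and 1.07 from Ccl4.

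Ccl5 encodes RANTES, which is also made by T and NK lymphocytes, whose markers were not analysed here. Its level was 518 CPM in control 1 and 183 CPM in control 3, against 197, 325 and 120 CPM in CYP11A1 1, 2 and 3. Control 1 was the highest and CYP11A1 3 the lowest, and Ccl5 was the only chemokine of the 4 for which CYP11A1 1 was not the lowest on this scale. The means were 351 ± 237 CPM (SD, n = 2) and 214 ± 104 CPM (SD, n = 3). Its log2 fold change was -0.72, with an interval from -2.31 to 0.88, and it lay between -1.28, without control 3, and 0.20, without control 1. The nearest of these genes in profile was Ccl3, at rank 2600 of 10345.

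**Figure D3:**
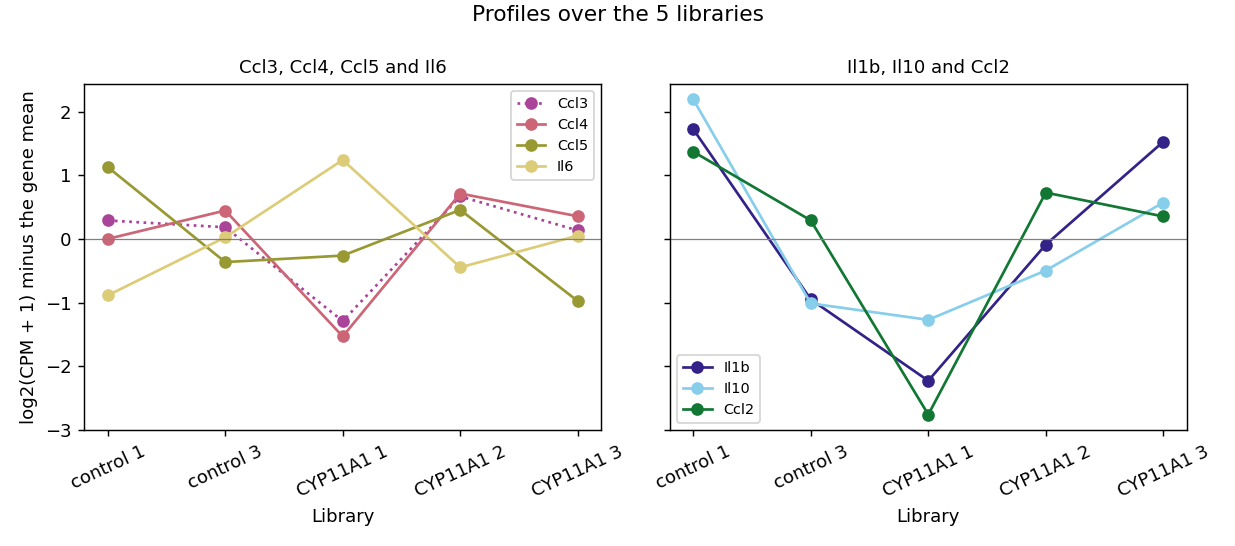
Profiles of the 7 tested genes over the 5 libraries, as log2(CPM + 1) minus the mean of each gene, with lines drawn only to join the points of a gene. Ccl3 (dotted) and Ccl4 nearly coincide, with a root mean square difference of 0.23, and that of Il1b and Il10 is 0.67. Il6 is highest in CYP11A1 1, where Ccl2, Ccl3, Ccl4, Il1b and Il10 are lowest.

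Il1b encodes a pyrogenic cytokine that is cut from its precursor by caspase-1. Among the cytokines, it had the largest standard deviation of log2(CPM + 1) within groups. In CPM, Il10 spanned more in the controls, 16.8-fold against 6.50-fold, and Il1b more in the CYP11A1 group, 14.2-fold against 7.10-fold. Il1b was at 312 CPM in control 1 and 48.0 CPM in control 3, against 19.2, 88.0 and 272 CPM in CYP11A1 1, 2 and 3. High values occurred in 1 library of each group, control 1 and CYP11A1 3, which were also the libraries with the fewest features detected. The means were 180 ± 186 CPM (SD, n = 2) and 126 ± 131 CPM (SD, n = 3), and 235 of the 10346 features had a larger spread within groups. The log2 fold change was -0.51 with a standard error of 1.01 and a 95% interval from -2.71 to 1.69 (edgeR's quasi-likelihood test, adjusted p = 1). It was -1.73 without CYP11A1 3, 1.40 without control 1 and 0.13 without both of these libraries.

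Il10, the gene of an anti-inflammatory cytokine, was low in these cells, and its profile was nearest to that of Il1b among these genes. Il10 had 239 counts in control 1 and 11 in control 3, against 5, 28 and 81 counts in CYP11A1 1, 2 and 3. The corresponding values were 18.2 and 1.08 CPM against 0.738, 1.98 and 5.24 CPM. Control 1 alone stood high, and control 3 lay within the range of the CYP11A1 group. A log2 fold change of -1.79 was fitted, the largest in size of the 7, with a standard error of 1.15 and a 95% interval from -4.29 to 0.72. Its unadjusted p was 0.146 and its adjusted p 1 in edgeR's quasi-likelihood test. With single libraries left out it lay between -2.77, without control 3, and 1.36, without control 1, and without both control 1 and CYP11A1 3 it was 0.36, so that its direction rested on control 1. The root mean square difference between the profiles of Il10 and Il1b was 0.67. Il10 ranked 139 of 10345 features in likeness to Il1b, and Il1b ranked 246 in likeness to Il10. On the FPKM scale the ratio of Il1b to Il10 was 8.37 and 21.7 in the controls and 12.7, 21.8 and 25.4 in CYP11A1 1, 2 and 3.

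Il6 was the only gene of the 7 with a fitted fold change above 0. Its level was 153 CPM in control 1 and 290 CPM in control 3, against 674, 208 and 295 CPM in CYP11A1 1, 2 and 3. CYP11A1 1, the low library for most of the other genes, was the highest for Il6, and control 1, the highest for Il1b, Il10, Ccl2 and Ccl5, was the lowest. The means were 222 ± 96.4 CPM (SD, n = 2) in controls and 392 ± 247 CPM (SD, n = 3) in the CYP11A1 group. The log2 fold change was 0.82 with a standard error of 0.75 and a 95% interval from -0.81 to 2.46 (edgeR's quasi-likelihood test, adjusted p = 1). It lay between 0.18, without CYP11A1 1, and 1.29, without control 3. In likeness to Il6, the other 6 genes ranked between 8185 and 10261 of 10345 features, so that each was further from it than the median feature, and the library scaling enters this measure.

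Tnf, which encodes tumor necrosis factor-alpha, was at the limit of detection. It had 2 counts in each control library and 1 count in each CYP11A1 library. With exact Poisson limits at the 95% level, 2 counts allow between 0.242 and 7.22 counts and 1 count between 0.0253 and 5.57. Both groups lay under the floor of 3 counts, so no fold change was taken and no difference was detectable at this depth. The upper limits corresponded to at most 0.447 FPKM in any library, while Il1b was at 8.43 FPKM or more in each of the 5 libraries.

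Together, the 8 genes took 0.483% of the counts in control 1 and 0.421% in control 3, against 0.0996%, 0.666% and 0.473% in CYP11A1 1, 2 and 3. The share was lowest in CYP11A1 1, while CYP11A1 2 had the highest, so the groups overlapped. After TMM scaling the gap was smaller, with a sum of 1624 CPM in CYP11A1 1 against 3975 to 5011 CPM in the other libraries. The 10 most counted features took 65.4% of the counts in CYP11A1 1, the highest share of the 5 libraries, and its part in the low values was not tested. The make-up of these transcripts within a library does not depend on scaling between libraries. Of the summed FPKM of the 8 genes, the chemokines held 94.2% and 94.5% in the controls and 69.1%, 96.3% and 91.3% in CYP11A1 1, 2 and 3. Il6 held 30.2% in CYP11A1 1 and between 2.15% and 5.05% in the other 4 libraries. Ccl2 held 39.6% in control 1, between 22.4% and 24.2% in control 3, CYP11A1 2 and CYP11A1 3, and 7.17% in CYP11A1 1. The ratio of Il6 to Ccl2 therefore differed most in CYP11A1 1, where Ccl2 was at 0.237 times the FPKM of Il6, against 4.60 to 18.4 times in the other libraries.

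**Figure D4:**
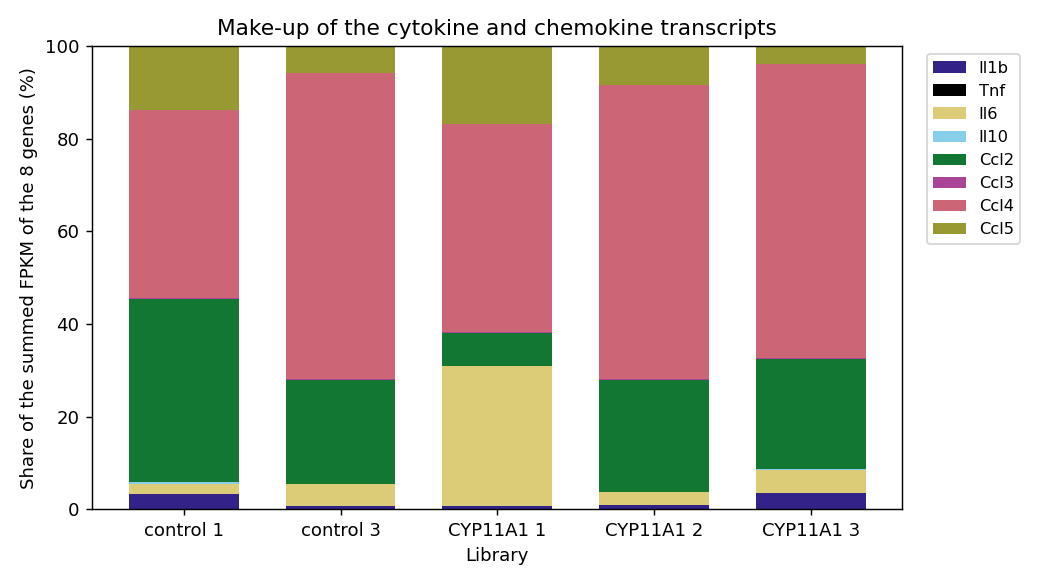
Share of each gene in the summed FPKM of the 8 genes, 1 bar per library, each bar adding up to the whole. Ccl4 holds between 40.5% and 66.1%, and CYP11A1 1 differs from the other bars in its share of Il6, 30.2%, and of Ccl2, 7.17%.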

How the data were processed

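The libraries hold RNA of microglia from the offspring of control dams (2 libraries) and of dams given CYP11A1 adenovirus (3 libraries), sequenced after amplification of full-length cDNA from low amounts of RNA, according to the methods of the study. The labels name a kit for small RNA instead. The authors deposited raw read counts per feature and FPKM per feature, which are counts divided by the library total and the feature length. HISAT2 2.0.4 and HTSeq 0.9.1 are named in the submitters' processing notes, and the genome build and annotation are not given in the sources used here. Amplification without molecular identifiers can widen the spread between libraries.

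Groups came from the labels, and table columns were assigned by sample title. Total counts of 9623896 to 13624545 per library set the depth, and 3 counts in a library were taken as the floor. Counts were compared with edgeR 4.0.16 (R 4.3.3): filterByExpr with a minimum count of 10, TMM factors, estimateDisp, and glmQLFit with glmQLFTest. The group was the only term. The Benjamini-Hochberg adjustment covered every feature tested. The standard error was taken as the absolute fold change divided by the square root of the F statistic, and the 95% interval used the total degrees of freedom. The test was checked on simulated data. Alternatives used DESeq2 1.42.0, limma 3.58.1 on log2(FPKM + 1) or log2(FPKM + 0.1), other scalings and filters, the replicate number as a block, and libraries left out. The figures were drawn with matplotlib 3.10.9.

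The 8 genes and the lists were chosen with earlier results of these data known. The rule was to name the 8 genes, the 3 annotated features nearest in profile to the gene with the highest median FPKM, and the leading genes of lists of pathway genes and cell type markers. None of the 123 symbols on those lists could be matched to an identifier, so these lists were not analysed here. The promoters are those of RefSeq on GRCr8, and no promoter of the remaining 5 genes was analysed here.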

Additional observations from a re-analysis of the deposited data

How the results depend on the processing

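The count of the 8 genes past the adjusted threshold of 0.05 was 0 in every alternative run, which says little with so few libraries. At the unadjusted threshold it was at most 1, which was Il10 without control 3, where 5.95% of 12643 features passed, and Ccl2 with the crossed pairing, where 4% of 8871 passed. Over all features, edgeR called 0, DESeq2 called 11, edgeR without the filter on low counts called 10, and the unadjusted threshold gave 441. Leaving out each library in turn gave 0 features each time. Of 104 alternative fold changes of the 7 tested genes, 93 kept their direction and 11 turned. On the log2 scale, total counts alone gave 0.0391 for Ccl3 and 0.12 for Ccl4. Leaving out single libraries gave between -1.73 and 1.40 for Il1b, -2.77 and 1.36 for Il10, -0.86 and 0.21 for Ccl3, -0.70 and 0.31 for Ccl4, and -1.28 and 0.20 for Ccl5. A lone control, where 1 was left, was assumed to vary like the other libraries. Without both control 1 and CYP11A1 3, chosen after seeing the data, Il1b was at 0.13, Il10 at 0.36 and Ccl5 at 0.48. The cause of these turns was not tested. Il6 stayed between 0.18 and 1.29 and Ccl2 between -2.15 and -0.27. With the replicate block on the libraries numbered 1 and 3, 0 features and 0 of the 7 genes passed, and 101 of 8871 features passed without adjustment. The block gave -0.85 for Il1b, 0.96 for Il6, -1.09 for Il10, -2.15 for Ccl2, -1.05 for Ccl3, -0.93 for Ccl4 and -1.12 for Ccl5. For the crossed pairing, chosen after a correlation of -0.281 between same-numbered libraries was seen, these were 0, 0 and 355. The alternatives planned for pathway lists could not be run without names. Low counts limit Tnf, and the spread between libraries limits the other genes. Why Tnf had so few counts was not tested.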
